A study of Bos taurus with 40 samples.

Results

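The collagen chain genes are the genes whose symbols read COL, a number, A and a number and nothing more. The count tables listed 13570 genes, and 20 of them carried such a symbol. All 20 had reads and were among the 13148 genes tested. They were measured by RNA-seq in 10 untreated Korean cattle, 5 cows and 5 bulls, slaughtered at more than 22 months of age. Every animal gave pituitary gland, longissimus dorsi muscle, liver and abdominal fat, for 40 libraries in all, 5 for each sex in each tissue. The study set out to find genes that differ between cows and bulls. The animals were of 1 breed from an experimental station, and each tissue was sequenced whole, so a value is an average over all its cell types.

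Collagens are the main structural proteins of the extracellular matrix. Each molecule is built from chains wound into a triple helix, and the chains are joined in the endoplasmic reticulum, secreted, trimmed and cross-linked. Fibrillar chains form the cables of tendon, skin, cartilage and the stroma of organs, basement membrane chains form the sheets under epithelia and around vessels, fat cells and muscle fibres, and other classes decorate fibrils, anchor cells or cross the cell membrane. Fibroblasts are the main makers of fibrillar collagen in fat and muscle, and stellate cells in liver, while endothelium and the cells that rest on a basement membrane add to its sheets.

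By class, 8 of the 20 were fibrillar chains (COL1A1, COL1A2, COL2A1, COL3A1, COL5A3, COL11A1, COL11A2 and COL27A1). The basement membrane chains were COL4A1 and COL4A3, and the beaded filament chains were COL6A1 and COL6A2. Short chain networks had 3 members (COL8A1, COL8A2 and COL10A1), multiplexins 2 (COL15A1 and COL18A1) and transmembrane collagens 2 (COL13A1 and COL17A1). COL12A1 was the only FACIT, a collagen that sits on the surface of fibrils. Partner chains such as COL4A2, COL5A1 and COL6A3 were not analysed here.

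The libraries held between 5173092 and 19165864 reads on named genes. Markers of each tissue's main cells matched the tissue labels. Levels are given as CPM (reads scaled by library size and a TMM normalization factor). The summed CPM of 4 hepatocyte markers were at least 76900 in liver and at most 447.5 elsewhere. Those of 3 adipocyte markers were at least 4369 in fat and at most 974.8 elsewhere. The liver library labelled bull 3 went against its sex label, with 8694 reads of XIST, which is read from the inactive X, and 0 of the Y-linked DDX3Y and USP9Y. The fat library of bull 5 had few Y-linked reads (2 of DDX3Y and 23 of USP9Y). The pituitary library of bull 5 had the highest share of collagen reads of its tissue. Values without these libraries are given beside the share of reads, the tissue counts and the sex differences. Without all 3 of them the collagen share was 1.80% to 6.36% in fat, 0.123% to 0.210% in pituitary and 0.0762% to 0.323% in liver.

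Fat was the most collagen-rich of the tissues. The 20 genes took 1.69% to 6.36% of the reads in fat, with a median of 3.49%. In muscle the share was 0.328% to 1.05% (median 0.480%), in pituitary 0.123% to 0.455% (median 0.163%) and in liver 0.0762% to 0.323% (median 0.148%). All 10 fat libraries lay above all other libraries. Pituitary and liver overlapped widely, and muscle lay above liver in every library. Within a tissue, shares in cows and bulls overlapped.

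**Figure D1:**
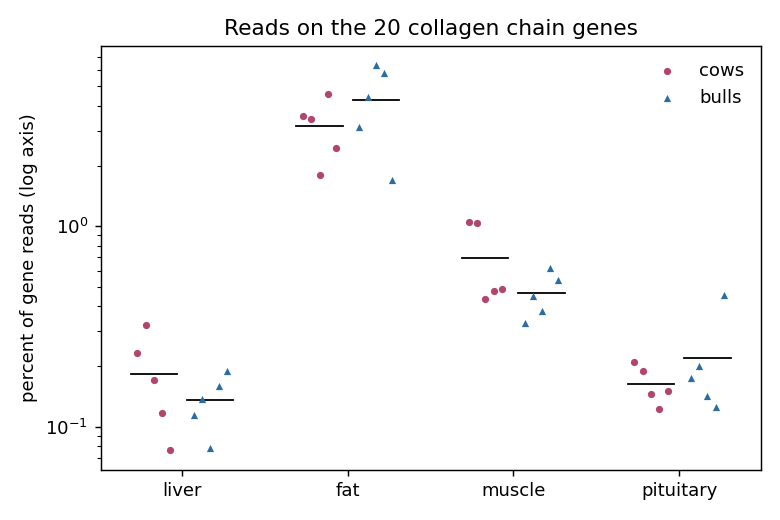
Percent of the reads on named genes that fell on the 20 collagen chain genes (log axis) in each of the 40 libraries, by tissue. Circles are cows, triangles are bulls, and bars are means of 5 libraries. Fat runs from 1.69% to 6.36%, above every library of the other tissues, and the pituitary of bull 5 stands at 0.455%.

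The make-up of these reads differed between tissues (plot of chain classes). Multiplexin chains held a mean of 62.4% of the collagen reads in liver (52.4% to 68.7%), but 5.14% in fat, 6.50% in muscle and 6.12% in pituitary. No liver library overlapped those of the other tissues in this share. Fibrillar chains held 63.6% in fat, 60.5% in pituitary, 47.3% in muscle and 21.9% in liver. Beaded filament chains held 22.5% in muscle and 5.64% in liver, and basement membrane chains 21.3% in muscle and 6.69% in liver. FACIT reads, all from COL12A1, were 6.16% in pituitary and 0.618% in fat. These are shares of reads and not of molecules, since long transcripts give more reads.

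**Figure D2:**
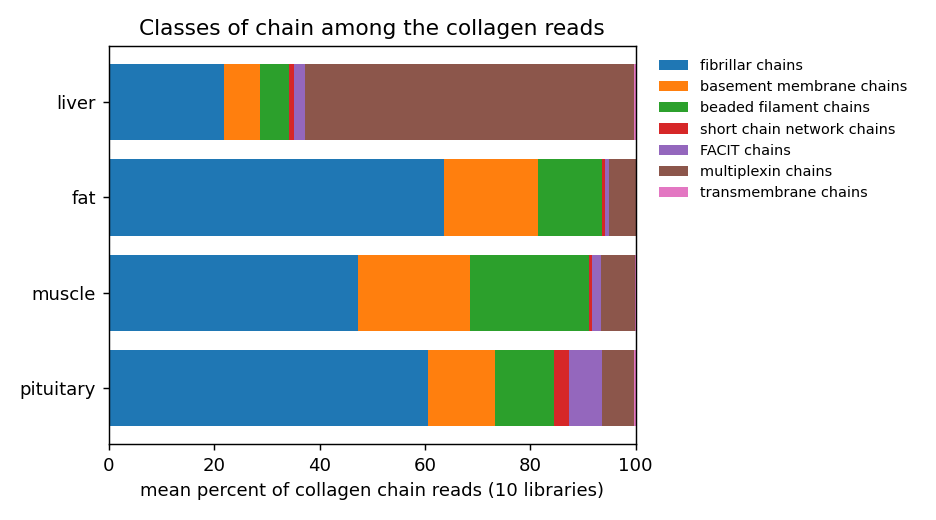
Mean percent of the collagen chain reads that each class of chain held in liver, fat, muscle and pituitary (10 libraries each). The multiplexin part covers 62.4% of the liver bar and under 7% of each other bar, and fibrillar chains cover 63.6% of the fat bar.

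Between tissues, more of the 20 genes were called higher than lower in the tissue of a pair with the larger median share of collagen reads. That share is made of reads on the same 20 genes, so the counts describe it and are no separate support for it. A gene was called where edgeR's quasi-likelihood test over all 40 libraries, with terms for tissue and sex, gave an adjusted p under 0.05. In fat against liver 14 were called higher, against 35.4% of all genes tested, and 3 lower, against 28.9%. In fat against muscle 10 were higher (background 32.8%) and 3 lower (26.8%), and in fat against pituitary 11 were higher (31.8%) and 4 lower (32.8%). The share of chain genes called was above the background in the direction of fat in all 3 pairs, and below it in the other direction. The genes higher in fat than in liver included COL2A1, COL8A2 and COL17A1, which had 3, 8 and 4 reads over all liver libraries.

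In muscle against liver 15 were higher (background 34.0%) and 4 lower (28.0%), which left COL4A3 as the only chain gene not called. In pituitary against liver 12 were higher (35.1%) and 2 lower (29.4%), and 9 and 3 without the pituitary of bull 5. Without the liver of bull 3 and the fat and pituitary of bull 5, the counts higher and lower were 13 and 4 in fat against liver, 10 and 3 in fat against muscle, 11 and 3 in fat against pituitary, 15 and 4 in muscle against liver, and 8 and 3 in pituitary against liver. In muscle against pituitary 8 were higher (31.5%) and 4 lower (32.5%). Without those libraries they were 9 and 4. The split turned to 7 higher and 8 lower when libraries were scaled by their totals alone, a scaling under which 55.5% of all genes were called lower in muscle.

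Several of these differences left no overlap between 10 libraries and 10. In fat against liver 10 chain genes were higher in every fat library than in every liver library, where 10.7% of all genes did so. The corresponding counts were 2 in fat against muscle (6.81%), 8 in fat against pituitary (10.5%), 10 in muscle against liver (14.4%), 6 in muscle against pituitary (13.9%) and 5 in pituitary against liver (19.2%). In the opposite direction the counts were 0, 0, 2, 2, 2 and 1 (10.3%, 8.97%, 14.0%, 12.3%, 16.8% and 14.0%). The median log2 fold change of the 20 genes was 3.01 in fat against liver and 3.32 in muscle against liver, where the medians of all genes were 0.13 and 0.11. It was 0.53 in muscle against pituitary, beside -0.03 for all genes, and turned to -0.42, beside -0.89, when libraries were scaled by their totals alone.

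The summed markers of matrix-making cells had their highest median in fat, with muscle next. The summed CPM of 5 fibroblast markers (PDGFRA, PDGFRB, THY1, DPT and FAP) ran from 482.5 to 1665 in fat, 282.2 to 840.8 in muscle, 85.6 to 178.3 in pituitary and 56.2 to 131.6 in liver. The sums of 5 endothelial markers were 1171 to 2413, 584.9 to 984.1, 151.3 to 295.0 and 342.5 to 844.2 in the same order, so liver lay above pituitary. Single markers did not all follow the sums. KDR and TEK had higher medians in liver (222.4 and 95.9 CPM) than in fat (121.9 and 84.6), while PECAM1, CDH5 and VWF had higher medians in fat. THY1 had a median of 50.2 in pituitary and 4.41 in liver, but DPT 1.48 and 18.4. FAP had no read in 1 of the 10 liver libraries, and the other markers of both lists were read in every library. Their part in the tissue differences was not tested. In whole tissue, more cells of a type and more RNA per cell cannot be told apart.

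Type I collagen, the main fibril of connective tissue, is made of COL1A1 and COL1A2 chains. COL1A1 CPM was 599.6 to 12570 in fat (median 3892), 355.5 to 2249 in muscle (median 638.6), 48.5 to 388.9 in pituitary (median 90.1) and 13.8 to 120.7 in liver (median 34.7). Fat overlapped muscle only at its low end, and muscle and pituitary overlapped through bull 5's pituitary. Every step in the order of fat, muscle, pituitary and liver was called. The log2 differences were 2.36 ± 0.41 (SE) for fat over muscle, 3.04 ± 0.41 for muscle over pituitary and 1.15 ± 0.41 for pituitary over liver, with adjusted p of 1.23e-05, 1.46e-07 and 0.0163. The last step was not called without the pituitary of bull 5 (0.79, adjusted p = 0.0777) or without any tissue of bull 1 (adjusted p = 0.0504).

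COL1A2 had the same order with another spacing. Its CPM was 586.6 to 8907 in fat (median 3395), 264.3 to 1454 in muscle (median 504.6), 140.7 to 634.5 in pituitary (median 314.6) and 15.5 to 108.1 in liver (median 28.9). Here the pituitary libraries lay apart from all liver libraries and overlapped those of muscle. The log2 difference was 2.58 ± 0.38 for fat over muscle, 1.006 ± 0.38 for muscle over pituitary and 2.87 ± 0.38 for pituitary over liver (adjusted p = 6.01e-07, 0.0202 and 4.47e-08). Muscle over pituitary was 0.12, adjusted p = 0.812, when scaled by library totals, and was not called without cow 2 (adjusted p = 0.0664).

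COL3A1, the chain of the fine fibrils of type III collagen, was 3246 to 18800 CPM in fat, with a median of 7470. It was 1088 to 3949 in muscle (median 1689), 147.7 to 330.2 in liver (median 194.0) and 89.9 to 353.1 in pituitary (median 118.5). Fat and muscle lay wholly above the other tissues. Liver and pituitary could not be ordered, with a log2 difference of 0.54 ± 0.29 for liver over pituitary and an adjusted p of 0.0962. Fat exceeded muscle by 2.12 ± 0.29 (adjusted p = 8.39e-08).

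COL5A3, a minor fibrillar chain that is built into type V collagen, showed the widest gap between fat and liver of the 20 genes. It had 612 to 2499 CPM in fat (median 780.6), 98.8 to 201.7 in muscle (median 140.1), 1.79 to 10.7 in pituitary (median 3.88) and 1.40 to 6.44 in liver (median 3.08). Fat, muscle and the remaining pair formed 3 separate ranges, and COL5A3 and COL18A1 were the chain genes whose fat and muscle libraries did not overlap. Fat was higher than liver by 8.19 ± 0.27 (adjusted p = 2.20e-23) and than muscle by 2.71 ± 0.26 (adjusted p = 2.57e-11). Pituitary and liver differed by 0.41 ± 0.28, adjusted p = 0.201.

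COL4A1, a chain of the network that is common to nearly all basement membranes, was 2591 to 9412 CPM in fat (median 3874) and 745.2 to 3980 in muscle (median 1417). It was 59.3 to 216.9 in liver (median 122.5) and 73.3 to 182.1 in pituitary (median 105.7). Fat and muscle overlapped, both lay above all liver and pituitary libraries, and these last were interleaved. Fat was above muscle by 1.55 ± 0.27 (adjusted p = 6.99e-06) and muscle above liver by 3.63 ± 0.27 (adjusted p = 3.81e-14), while liver over pituitary was 0.07 ± 0.27 (adjusted p = 0.835).

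COL6A1 and COL6A2 form the beaded filaments of type VI collagen, which lie around muscle fibres and fat cells. COL6A1 was 1354 to 2522 CPM in fat (median 1992), 743.5 to 1367 in muscle (median 1030), 49.4 to 242.2 in pituitary (median 75.8) and 41.2 to 109.1 in liver (median 70.5). COL6A2 was 733.7 to 1545 in fat (median 1280), 401.5 to 925.8 in muscle (median 585.6), 36.7 to 149.8 in pituitary (median 55.0) and 14.4 to 71.2 in liver (median 37.2). For both, fat and muscle met at the edges of their ranges and stood clear of the lower pair. Their step from muscle to fat was small, 0.93 ± 0.22 for COL6A1 and 0.90 for COL6A2 (adjusted p = 0.000436 and 0.00159). Neither was called when tested against a change of 1 on the log2 scale (adjusted p = 0.676 and 0.713). COL6A2 was higher in pituitary than in liver by 0.70 (adjusted p = 0.0123), and by 0.48 (adjusted p = 0.0623) without the pituitary of bull 5.

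**Figure D3:**
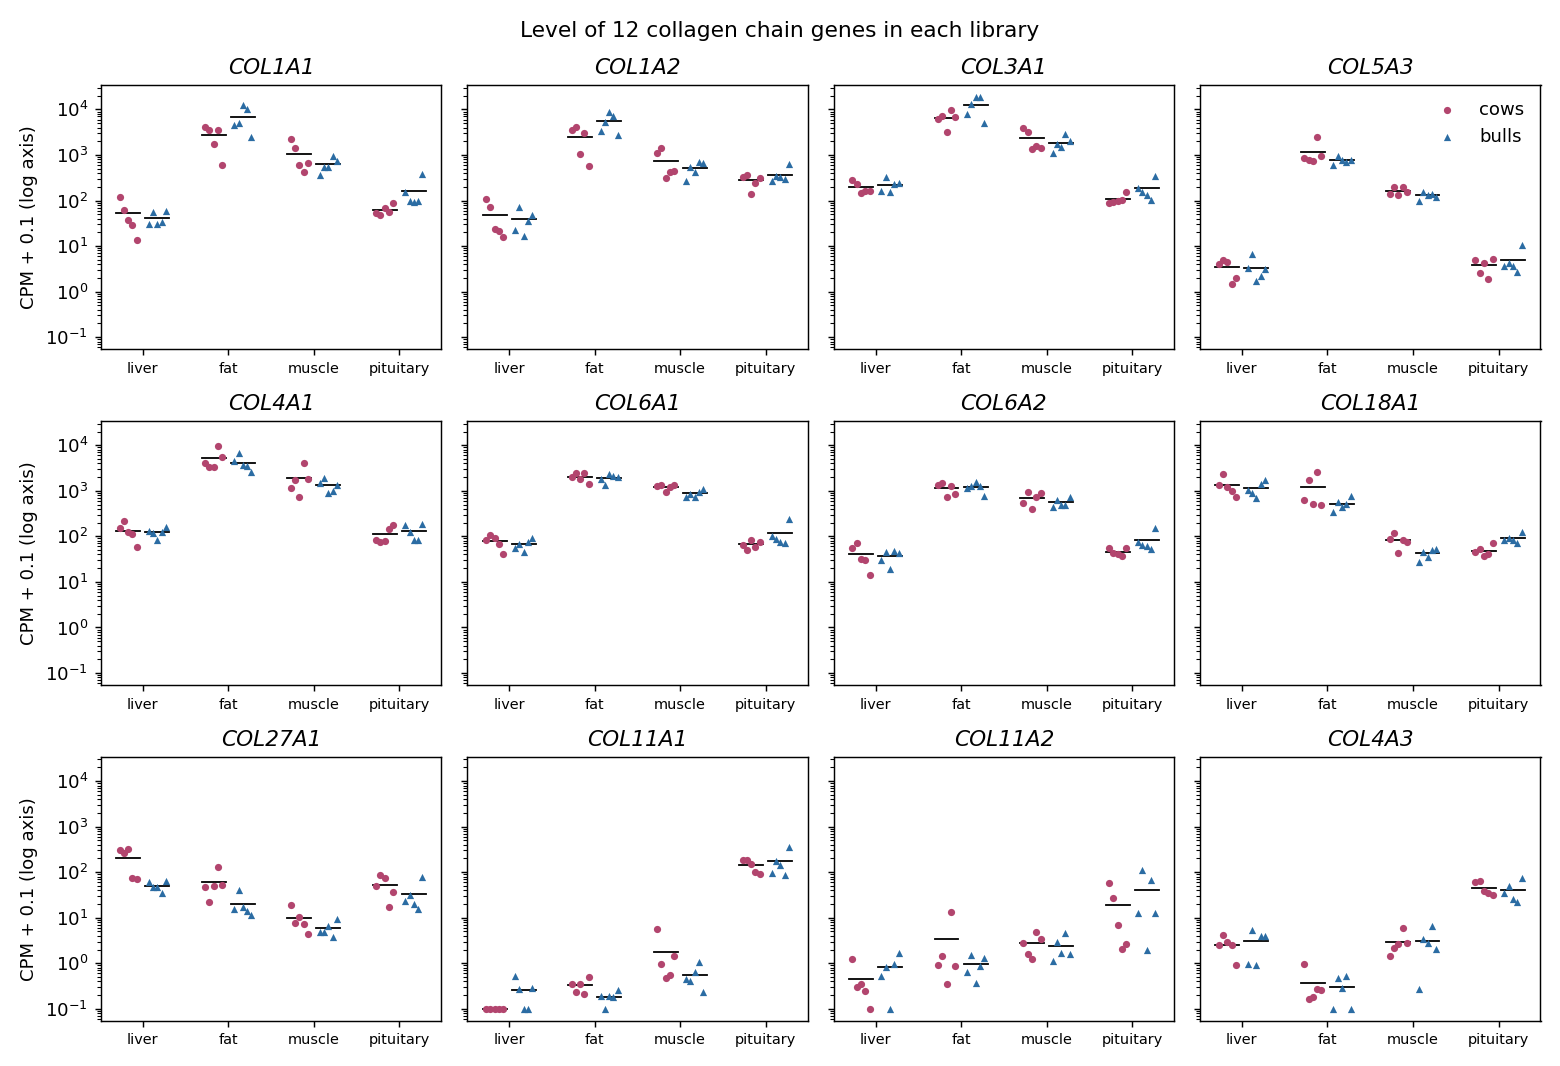
Level of 12 collagen chain genes in each library, as CPM with 0.1 added on a log axis, by tissue. Circles are cows, triangles are bulls, and bars are means of 5 libraries. Fat is highest for COL1A1, COL1A2, COL3A1, COL5A3, COL4A1, COL6A1 and COL6A2, while COL11A1, COL11A2 and COL4A3 are highest in pituitary.

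A small group went the other way and was highest in the pituitary: COL11A1, COL11A2 and COL4A3. Each was called over all 3 other tissues. COL11A1, a type XI chain best known from cartilage fibrils, was 87.5 to 355.3 CPM in pituitary (median 145.8), 0.138 to 5.52 in muscle (median 0.486) and 0 to 0.394 in fat (median 0.123). Liver had 6 reads in all, spread over 3 of 10 libraries. No library of another tissue came near the lowest pituitary value. Pituitary exceeded muscle by 7.24 ± 0.41 on the log2 scale (adjusted p = 1.67e-17) and fat by 9.94 ± 0.55 (adjusted p = 6.81e-20).

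COL11A2, a partner of COL11A1 in type XI collagen, was far more variable among pituitaries. The 5 cows had 57.9, 26.7, 6.96, 1.95 and 2.60 CPM, and the 5 bulls 12.8, 111.5, 1.83, 67.3 and 12.5. Muscle had 1.04 to 4.88, liver 0 to 1.60, and fat 0.246 to 1.44 except for 13.2 in cow 4. Pituitary and muscle thus overlapped, and both sexes had high and low pituitaries. The mean pituitary level was above muscle by 3.60 ± 0.65 (adjusted p = 2.10e-05). COL11A2 was called higher in fat than in liver (1.85 ± 0.77, adjusted p = 0.0324), but not without cow 4 (0.47, adjusted p = 0.544) or cow 2 (1.75, adjusted p = 0.0658).

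COL4A3 belongs to the basement membrane network of kidney glomerulus and lung, where it pairs with other tissue-restricted type IV chains. It had 22.4 to 74.7 CPM in pituitary (median 36.9), 0.174 to 6.63 in muscle (median 2.59), 0.806 to 5.37 in liver (median 2.62) and 0 to 0.875 in fat (median 0.166). The pituitary range was separate from all others, and liver and muscle overlapped. Pituitary was above muscle by 3.90 ± 0.38 (adjusted p = 6.22e-11) and above liver by 3.98 ± 0.38 (adjusted p = 2.99e-11). Fat was below liver by 3.39 ± 0.50 (adjusted p = 4.71e-08), which is the reverse of COL4A1.

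COL18A1, COL27A1, COL10A1 and COL13A1 had their highest mean in liver. COL18A1 encodes type XVIII collagen of basement membranes, whose end fragment is endostatin. Its CPM was 697 to 2396 in liver (median 1123), 336.8 to 2609 in fat (median 540.2), 36.3 to 126.2 in pituitary (median 71.2) and 27.1 to 115.9 in muscle (median 51.9). Liver and fat overlapped, as did muscle and pituitary, but the lowest fat library was above the highest pituitary library. Liver was above fat by 0.60 ± 0.31, which was not called (adjusted p = 0.0902), above pituitary by 4.08 ± 0.31 (adjusted p = 8.19e-14) and above muscle by 4.37 ± 0.31 (adjusted p = 1.45e-14).

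In the RefSeq annotation of a later assembly, COL18A1 lies close to COL6A1 and COL6A2, with 3 protein-coding genes between COL18A1 and COL6A1 and 0 between COL6A1 and COL6A2. The tissue order of COL18A1 was nevertheless different from that of its neighbours. In muscle against liver COL18A1 was lower by 4.37 where COL6A1 was higher by 3.85 and COL6A2 by 4.02.

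COL15A1, the other multiplexin and also a basement membrane component, had the opposite liver pattern to COL18A1. It was 305.6 to 772.3 CPM in fat (median 450.0), 272.9 to 691.1 in muscle (median 404.2), 4.60 to 37.7 in pituitary (median 9.58) and 1.93 to 13.2 in liver (median 5.42). Fat and muscle covered nearly the same range and stood far above the rest. The log2 difference of fat over muscle was 0.23 ± 0.30 (adjusted p = 0.517), and that of muscle over liver 6.08 ± 0.31 (adjusted p = 2.26e-18). The multiplexin share of the liver reads was therefore almost wholly COL18A1.

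COL27A1, a fibrillar chain known from cartilage, was the only chain gene called higher in liver than in each other tissue. It was 34.3 to 330.7 CPM in liver (median 67.9), 15.5 to 86.6 in pituitary (median 33.5), 11.5 to 128.3 in fat (median 31.3) and 3.64 to 18.8 in muscle (median 6.93). Liver overlapped pituitary and fat, but not muscle. Liver was above pituitary by 1.31 ± 0.34 (adjusted p = 0.00133), above fat by 1.62 ± 0.34 (adjusted p = 0.000107) and above muscle by 3.83 ± 0.36 (adjusted p = 1.87e-11). The step over pituitary was 0.44, adjusted p = 0.304, when scaled by library totals alone. Its liver level was also called between the labelled sexes.

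COL12A1 and COL8A1 varied less between tissues. COL12A1 was 48.2 to 374.7 CPM in fat, 43.6 to 347.1 in muscle, 37.2 to 199.1 in pituitary and 20.2 to 55.0 in liver, with all ranges overlapping. Its neighbours in that order were not separated for fat and muscle (adjusted p = 0.468) or muscle and pituitary (0.0683), whereas pituitary was above liver by 1.04 (adjusted p = 0.00290). COL8A1, a chain made by vessel endothelium, was 50.3 to 335.1 in fat, 12.3 to 153.2 in muscle, 23.7 to 56.2 in pituitary and 3.97 to 40.1 in liver. Fat was above muscle by 1.39 (adjusted p = 0.00212) and pituitary above liver by 0.99 (adjusted p = 0.0265), while muscle and pituitary were not separated (adjusted p = 0.189).

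The remaining 5 genes were scarce. COL13A1, a transmembrane collagen, had tissue means of 2.33 to 5.28 CPM and was read in every library. COL8A2 had means of 0.943 to 1.38 CPM outside the liver and 8 reads in all liver libraries. COL2A1, the main chain of cartilage, had means of 1.20 CPM in muscle and 0.844 in pituitary and 3 reads in liver. COL17A1, a hemidesmosome component of epithelia, stayed at or below a mean of 0.416 CPM, and COL10A1, made by hypertrophic cartilage, at or below 0.337. COL10A1 had 79 reads and COL17A1 119 over all 40 libraries, and their tissue folds are not given.

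Ratios of reads between chains were compared across libraries, where transcript lengths cancel if the tissues use the same transcripts. Transcript use was not examined. The libraries had 0.550 to 1.28 COL1A2 reads per COL1A1 read in liver (median 0.859), 0.607 to 1.13 in fat (median 0.852) and 0.499 to 1.05 in muscle (median 0.760). In pituitary the ratio was 1.63 to 7.32 (median 3.49), and all 10 pituitary libraries lay above the other 30. Fat held its ratio within 1.86-fold while COL1A1 itself ranged over 21.0-fold. In pituitary the ratio ranged over 4.49-fold, with its lowest value in bull 5, whose COL1A1 was highest. These ratios were looked at after the levels were known and carry no test.

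For type VI collagen the ratio of COL6A2 to COL6A1 reads had medians of 0.725 in pituitary, 0.637 in muscle, 0.599 in fat and 0.505 in liver, and the ranges of all tissues overlapped. COL3A1 reads per COL1A1 read had a median of 5.21 in liver, 2.79 in muscle, 1.95 in fat, with a range of 0.908 to 1.93 in pituitary. Fat of cow 5 stood at 11.2, with 6695 CPM of COL3A1 and the lowest COL1A1 of all fat libraries.

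**Figure D4:**
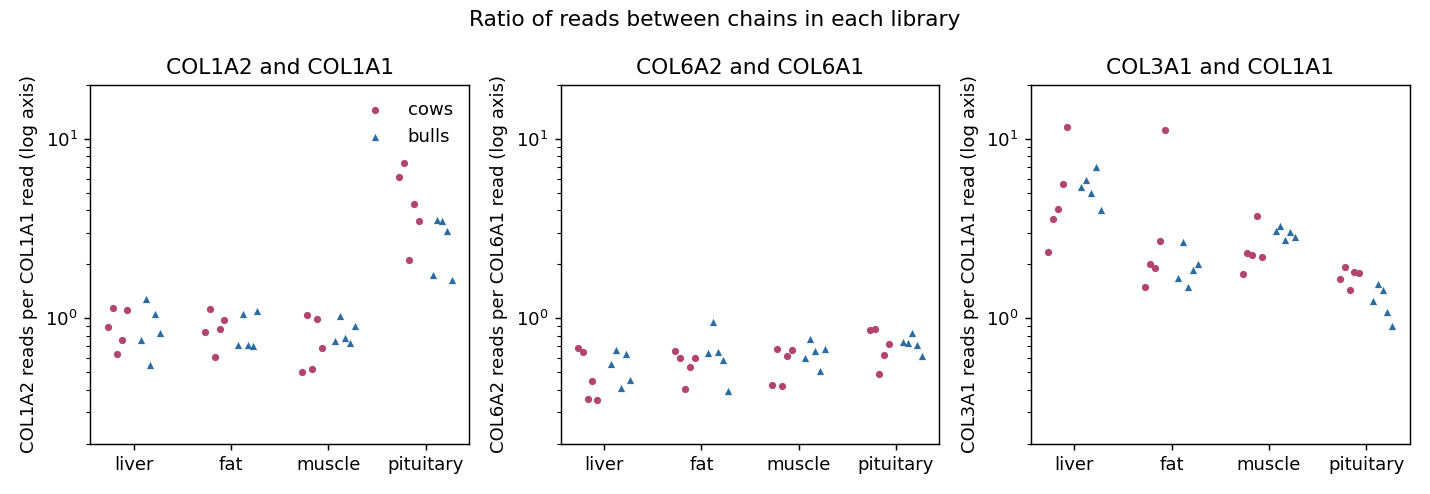
Ratio of reads between chains in each library (log axes) by tissue: COL1A2 to COL1A1, COL6A2 to COL6A1 and COL3A1 to COL1A1. Circles are cows and triangles are bulls. The COL1A2 to COL1A1 ratio is 1.63 to 7.32 in pituitary and at most 1.28 elsewhere, while the COL6A2 to COL6A1 ratio overlaps among all tissues.

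Genes that process collagen were counted alongside. Of 19 listed enzymes and chaperones of the endoplasmic reticulum 17 were tested. In fat against liver 10 were higher and 3 lower, where 35.4% of all genes were higher and 28.9% lower. The split was more even in muscle against liver, with 8 higher and 6 lower (34.0% and 28.0% of all genes). In muscle against pituitary it was 6 and 6 (31.5% and 32.5%). SERPINH1, the collagen-specific chaperone HSP47, had mean CPM of 897.2 in fat, 207.9 in muscle, 112.9 in pituitary and 33.7 in liver, the tissue order of COL1A1, and was 4.74 ± 0.27 higher in fat than in liver (adjusted p = 3.45e-17). P4HB, a subunit of prolyl hydroxylase that is also a general disulfide isomerase, was highest in liver at 2156 CPM, beside 332.0 to 415.8 elsewhere, and was lower in fat by 2.39 ± 0.19 (adjusted p = 7.13e-14).

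Of 13 proteases, enhancers and cross-linking enzymes 11 were tested, and 9 were higher and 2 lower in fat against liver (35.4% and 28.9% of all genes), and 9 higher and 1 lower in fat against pituitary (31.8% and 32.8%). PCOLCE, an enhancer of procollagen C-proteinase, had mean CPM of 270.4 in fat, 89.1 in muscle and 40.8 in liver, and was lowest in pituitary. Its relative PCOLCE2 had 340.2, 100.3 and 18.0, and 33.0 in pituitary. Fat was above muscle by 1.60 ± 0.27 for PCOLCE and 1.80 ± 0.31 for PCOLCE2 (adjusted p = 2.81e-06 and 5.03e-06).

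All 7 fibril-binding proteoglycans were tested, and all 7 were higher in fat than in pituitary, beside 31.8% of all genes. In fat against liver 5 were higher, beside 35.4% of all genes. DCN, which coats fibrils of type I collagen, had mean CPM of 2427 in fat, 898.0 in muscle, 153.8 in liver and 103.1 in pituitary. BGN differed less, with 375.3 in fat, 260.6 in liver, 117.3 in muscle and 89.6 in pituitary, and its fat and liver levels were not separated (0.50 ± 0.26, adjusted p = 0.0963). Of 9 listed receptors 5 were tested, with 3 higher and 1 lower in fat against liver (35.4% and 28.9% of all genes). In fat against pituitary 2 receptors were higher and 3 lower (31.8% and 32.8%). DDR1, a receptor kinase for collagen, was highest in pituitary at 257.4 CPM and lowest in liver at 5.85. MRC2, an uptake receptor, had 202.0 CPM in fat and 6.06 in liver.

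Between cows and bulls few chain genes differed. The comparison was made in each tissue with edgeR's likelihood ratio test, 5 libraries against 5. In liver 1 of 20 was called, lower in bulls, where 0.106% of all genes were called lower, 0.0685% higher and 0.175% in either direction. In pituitary 2 were called, both higher in bulls (0.555% of all genes higher, 0.190% lower and 0.745% in either direction). In fat 0 were called, where 0.0456% of all genes were higher, 0.0685% lower and 0.114% either. In muscle 0 were called, beside 0.137% higher, 0.380% lower and 0.517% either. No chain gene separated the sexes in fat (0.601% of all genes higher without overlap and 0.692% lower) or in muscle (0.730% and 0.920%). At an unadjusted p under 0.05 the likelihood ratio test gave 7 chain genes in fat, where 6.88% of all genes passed, and 3 in muscle, where 10.99% did, and DESeq2 and the quasi-likelihood test likewise called 0 in both.

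COL27A1 was the liver gene, and the study also listed it as differing between the sexes in liver. In the study's qRT-PCR of cattle it was not significant in liver, but was in muscle, pituitary and fat. The cows had 301.5, 267.5, 330.7, 75.4 and 71.5 CPM, and the bulls 59.6, 47.6, 46.2, 34.3 and 64.4. As labelled, all cows were above all bulls, which was true in this direction of 0.357% of all genes (0.190% in the other). The cows themselves fell at high (cows 1, 2 and 3) and low levels with nothing between 75.4 and 267.5. The log2 fold change was -2.01 ± 0.41 (adjusted p = 0.00445, likelihood ratio test). The library labelled bull 3, which carries XIST reads, had 46.2 CPM, within the range of the other bulls. Counted as a cow by those reads, it would overlap the bulls, and the separation would not hold. Without that library COL27A1 was called with an adjusted p of 0.0113. The quasi-likelihood test did not call it (adjusted p = 0.314).

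COL27A1 leaned the same way in the other tissues. In fat the cows had 46.7, 22.0, 49.5, 128.3 and 52.5 CPM and the bulls 15.7, 40.7, 17.03, 13.9 and 11.5, so that bull 2 alone reached into the range of the cows. The difference of -1.62 ± 0.49 had the smallest p of the chain genes in fat and was not called (adjusted p = 0.323), nor without bull 5 (-1.48, adjusted p = 0.378). Muscle and pituitary gave -0.75 and -0.66 (adjusted p = 0.529 and 0.659), with overlapping sexes. In pituitary the cows had 49.2, 86.6, 76.0, 17.2 and 35.8 CPM and the bulls 23.5, 31.2, 20.4, 15.5 and 76.8. Cows 1, 2 and 3 were thus the highest cows in pituitary as in liver, whereas in fat cow 4 was highest and cow 2 lowest. Over all but scarce genes, log2 CPM of cows 1, 2 and 3 correlated with each other at 0.9407 to 0.9752 in liver. With cows 4 and 5 they correlated at 0.9335 at most. The values were 0.9451 to 0.9714 beside at most 0.9338 in muscle, and 0.9618 to 0.9844 beside at most 0.9515 in pituitary. In fat the correlations were 0.8352 to 0.9223 beside up to 0.9264, so those cows did not stand together there. Whether they form a group apart was not tested.

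With all tissues in 1 model of sex and tissue, 1 of 20 genes was called between the sexes, beside 1.35% of all genes lower in bulls, 0.335% higher and 1.69% in either direction. This was again COL27A1, at -1.27 ± 0.25 (adjusted p = 0.000635, likelihood ratio test, and 0.00848 by the quasi-likelihood test). It was -1.23 without the liver of bull 3 (adjusted p = 0.00169), -1.23 without the fat of bull 5 (adjusted p = 0.00177) and -1.42 without the pituitary of bull 5 (adjusted p = 5.35e-06). That model takes the 4 tissues of an animal as independent. With the animal as a block in limma-voom the difference was -1.27 and was not called (adjusted p = 0.0845).

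COL18A1 and COL1A1 were the pituitary genes. For COL18A1 the cows had 45.2, 51.8, 36.3, 40.2 and 70.5 CPM and the bulls 83.6, 91.9, 83.0, 72.0 and 126.2. For COL1A1 the cows had 54.2, 48.5, 67.0, 56.2 and 88.4 CPM and the bulls 152.9, 98.2, 91.7, 96.3 and 388.9. In both genes the sexes did not overlap, though by a narrow margin, which held in this direction for 0.852% of all genes and in the other for 0.487%. The log2 fold changes were 0.90 ± 0.22 for COL18A1 (adjusted p = 0.0128) and 1.39 ± 0.37 for COL1A1 (adjusted p = 0.0345).

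Both pituitary calls were fragile. Without bull 5 the log2 fold change was 0.76 for COL18A1 (adjusted p = 0.0422) and 0.81 for COL1A1 (adjusted p = 0.0508). COL18A1 was not called without cow 1, 2 or 3 (adjusted p = 0.0827, 0.0533 and 0.0562), nor COL1A1 without cow 1, 2, 3 or 4 or bull 1 (adjusted p = 0.144, 0.165, 0.107, 0.0747 and 0.0635). The quasi-likelihood test called neither (adjusted p = 0.161 and 0.246). The summed fibroblast markers in pituitary were 85.6 to 135.8 CPM in cows and 93.5 to 178.3 in bulls, with 169.8 in bull 5, and their part in these differences was not tested. The summed hepatocyte markers were 176.8 CPM in the pituitary of bull 5, and their part was not tested either.

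**Figure D5:**
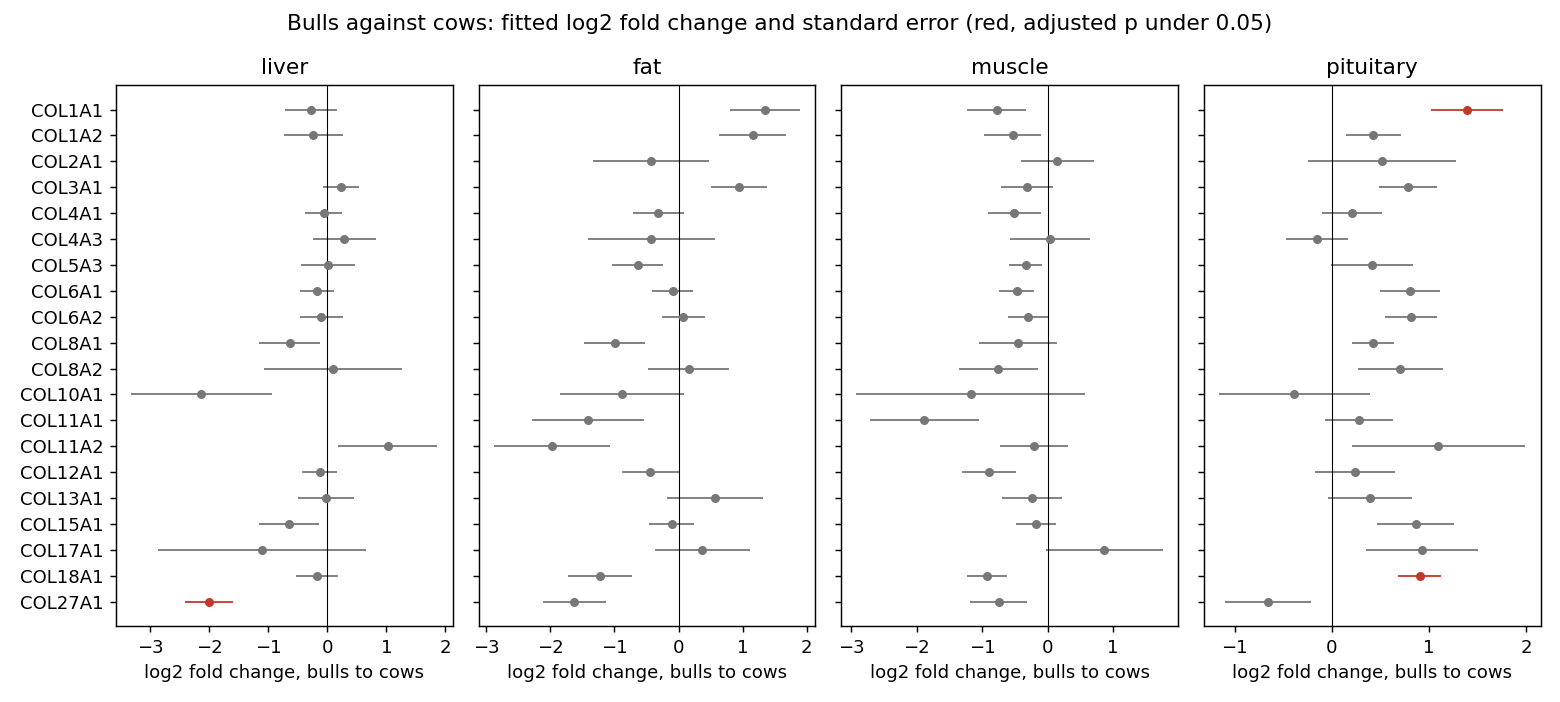
Log2 fold change of bulls to cows with its standard error for the 20 collagen chain genes, 1 panel per tissue (5 libraries of each sex, likelihood ratio model). Red points have an adjusted p under 0.05: COL27A1 in liver, and COL1A1 and COL18A1 in pituitary. COL2A1 and COL11A1 in liver are not drawn, since all libraries of 1 sex were at 0.

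Among the genes that were not called, the fitted log2 fold change was positive for 15 of 18 in pituitary, 7 of 20 in fat, 6 of 19 in liver and 3 of 20 in muscle. No test was made of these counts, and the share of all genes with a positive value was not counted. The median over the 20 genes was 0.47 in pituitary, -0.37 in fat, -0.15 in liver and -0.47 in muscle. For all genes these medians lay between -0.06 and 0. Without bull 5 the pituitary median over the 20 genes was 0.27. In liver the positive ones included COL11A1, with 6 reads in bulls and 0 in cows. COL1A1 and COL1A2 were higher in the bulls' fat by 1.35 ± 0.54 and 1.15 ± 0.53 and lower in their muscle by 0.78 and 0.53, none of which was called (adjusted p from 0.529 to 0.728). Without bull 5 the fat values were 1.57 and 1.33 (adjusted p = 0.328 and 0.464). COL18A1 was lower in bulls by 0.92 ± 0.31 in muscle, with 42.7 to 115.9 CPM in cows and 27.1 to 53.3 in bulls (adjusted p = 0.150). In pituitary it was higher.

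An interaction term asked whether the sex difference itself differed between tissues. None of the 20 genes was called by the likelihood ratio test, where 0.335% of all genes were. At an unadjusted p under 0.05 there were 4, beside 8.58% of all genes, and DESeq2 and the quasi-likelihood test also called 0. COL18A1 came nearest (adjusted p = 0.0634), followed by COL11A1 (0.0742). The value of COL11A1 rests on few reads outside the pituitary, with 6 in all liver libraries, 22 in fat and 80 in muscle. COL18A1 was called without the fat of bull 5 (adjusted p = 0.0289), without cow 5 (adjusted p = 0.00933) and with the animal as a block (adjusted p = 0.0266). COL11A1 was called without the fat of bull 5 (adjusted p = 0.0460), without cow 4 (adjusted p = 0.0314) and without bull 4 (adjusted p = 0.041). Without cow 5 COL1A1 was called as well (adjusted p = 0.0427).

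Among the processing genes tested (17, 11, 7 and 5 in the lists above), 2 were called between the sexes. Both were named after their values were seen. LOX, which cross-links collagen, was lower in the muscle of bulls by 2.23 ± 0.49 (adjusted p = 0.00817, likelihood ratio test). It was 1 of 11 in its list, where 0.380% of all genes were called lower in that tissue. P4HA1, a prolyl hydroxylase subunit, was higher in bulls by 0.58 ± 0.15 in the model over all tissues (adjusted p = 0.0224, likelihood ratio test). It was 1 of 17 in its list, where 0.335% of all genes were called higher. That model takes the 4 tissues of an animal as independent. Neither call is given here under other tests or with animals left out.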

How the data were processed

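Per the labels and the study's methods, the authors trimmed paired-end reads of poly-A libraries with Trimmomatic, aligned them to bosTau7 with Bowtie2 and TopHat2, and counted reads per gene with HTSeq. The deposited values are raw counts for 13570 genes, 1 table per library. The kit does not mark strand, so reads of overlapping antisense genes cannot be told apart. The row without a gene name (0.114% to 2.69% of gene reads) was left out. Genes with no read were dropped, which left 13148.

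TMM factors (0.518 to 1.71), edgeR 4.0.16 quasi-likelihood tests between tissues (sex and tissue as terms, all libraries) and likelihood ratio tests between sexes (the study's models, per tissue and over tissues) were used, with Benjamini-Hochberg adjustment over 13148 genes and a threshold of 0.05. CPM are scaled by TMM over 40 libraries, and log2 fold changes use a prior count of 0.125. Fits were tested on simulated data. DESeq2 1.42.0, limma 3.58.1, other scalings and filters, left-out animals and libraries and the animal as a block were alternatives.

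Ear tags in the titles pair the tissues of an animal. Deviations of the 60 same-animal pairs correlated between -0.450 and 0.560 (median 0.208, over 0.1 in 38), beside a median of -0.0163 with other animals. No 2 libraries of a tissue agreed within sampling noise. The closest pair was the liver of cow 4 and the liver labelled bull 3, the library with XIST reads. Their chi-square per degree of freedom was 15.85, beside a median of 116.9 over liver pairs, and their log2 CPM correlated at 0.988. Whether both came from 1 animal was not tested, and both were kept under their labels. Named genes were the 8 chain genes highest on average and the 2 highest in each tissue, up to 3 called over all other tissues in each tissue, those called between the sexes or nearest to it, the main chains of types I, III, IV and VI, and, for each list, the 2 highest. The remaining chain genes are described so that all 20 are accounted for. The 20 genes, the lists and the tests were chosen with earlier results of these data known. RefSeq symbols (ARS-UCD2.0) matched all 20, and no coordinates were taken, since that build differs from bosTau7.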

Additional observations from a re-analysis of the deposited data

Results flagged for a closer look

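In groups of 5 libraries, 15 of 102 groups held a value whose gap to the nearest other exceeded 0.71 of the group's range. For independent, normally distributed values chance gives about 1 in 20. That rate does not apply directly here, since the CPM were not logged and values of the same library are not independent. All 15 values were the highest of their group. Of these, 7 were the pituitary of bull 5: COL1A1 at 388.9 CPM (other bulls 91.7 to 152.9), COL1A2 at 634.5 (267.6 to 345.6), COL5A3 at 10.7 (2.64 to 4.13), COL6A1 at 242.2 (72.6 to 104.1), COL6A2 at 149.8 (51.5 to 76.7), COL27A1 at 76.8 (15.5 to 31.2) and the collagen share at 0.455% of reads (0.126% to 0.202%).

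The fat of cow 4 stood apart for COL5A3 at 2499 CPM (other cows 745.2 to 968.0), COL27A1 at 128.3 (22.0 to 52.5) and COL11A2 at 13.2 (0.246 to 1.36). In fat, bull 2 had 40.7 CPM of COL27A1 (other bulls 11.5 to 17.03) and cow 1 had 0.875 of COL4A3 (other cows 0.0650 to 0.174). The pituitary of cow 5 had 157.2 CPM of COL3A1 (other cows 89.9 to 102.1). The muscle of cow 1 had 5.52 CPM of COL11A1 (other cows 0.381 to 1.31), and its liver had 1.13 of COL11A2 (other cows 0 to 0.256).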

How the results depend on the processing

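Tissue counts of called chain genes mostly stayed within 1.5 times. Against a log2 change of 1, muscle against liver had 2 lower in place of 4, and pituitary against liver 7 higher and 1 lower in place of 12 and 2. By library totals alone, muscle against pituitary had 8 lower in place of 4, and pituitary against liver 1 lower in place of 2. That scaling moved the median of all genes to -0.89 and 0.92 in these pairs. Leaving out 1 animal gave 2 to 4 genes lower in muscle against liver (2 without cow 3). Chosen after seeing the data, leaving out the liver of bull 3 and the fat and pituitary of bull 5 gave 8 higher and 3 lower in pituitary against liver.

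Between the sexes, the quasi-likelihood test called 0 in liver in place of 1 and 0 in pituitary in place of 2, where library totals alone also gave 0 and leaving out 1 animal 0 to 2 (0 without cow 2 or cow 3). The interaction gave 0 to 2 in place of 0 when 1 animal was left out (2 without cow 5), 2 without the fat of bull 5, and 2 without both that library and the liver of bull 3. Pairing by animal as a replicate block gave 1 for the interaction and, by limma-voom, 0 in place of 1 over all tissues. In the tissue comparisons the block took away 1 call of a named gene, COL11A2 in fat against liver (1.41, adjusted p = 0.0799). Within a tissue no paired analysis was possible because an animal has 1 sex. The median over the 20 genes changed sign in muscle against pituitary under library totals alone (0.53 to -0.42). Expression near 1 read per library, as of COL10A1 and COL17A1, is beyond this depth.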
